A study of Mus musculus with 6 samples.

Results

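The genes described here encode heat shock proteins, their co-chaperones and the chaperonins, which were compared between treated and untreated RAW 264.7 cells. RAW 264.7 is a transformed mouse cell line that resembles macrophages, and the labels give no allele, transgene or other alteration of it. The sample titles name RAW 264.7, while the series title and 1 description line of each sample write 264.4. The treated cells had received bacterial lipopolysaccharide (LPS, 100 ng/ml) and LPS-binding protein (100 pM) and had been cultured for 16 hours, and the untreated cells had been cultured for the same 16 hours without either. RNA of both was hybridised together on 6 dual-colour arrays, 3 with the treated RNA in the dye Cy5 and 3 with it in Cy3, and each orientation was numbered in sets 1 to 3. The members are all genes whose probes name 1 symbol that begins with Hsp90, or with Hspa, Hspb, Hspd, Hspe, Hsph, Dnaja, Dnajb, Dnajc, Bag or Cct and then a digit. Hspa5, Hsp90b1, Dnajb9 and Dnajc3, which work in the endoplasmic reticulum, were left out. This gave 61 genes with 74 probes out of 10698 named genes and 16281 probes, and 51 of the 61 genes had a ratio on all 6 arrays.

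Chaperones bind proteins that are not yet folded or have lost their fold. HSP70 proteins do so in cycles of ATP use that J-domain proteins (the DNAJ families) start and that nucleotide exchange factors (the BAG and HSP110 families) bring to an end. The CCT ring folds actin and tubulin in the cytosol, and HSP60 with HSP10 folds proteins in mitochondria. Small heat shock proteins hold unfolded proteins without using ATP. LPS, from the outer membrane of bacteria, is handed by its binding protein to receptors on macrophages that start the inflammatory response. Many chaperone genes are induced by heat through the transcription factor HSF1, which binds repeats of the letters GAA and TTC, and extracellular HSP70 and HSP60 have been studied for their action on macrophages.

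Few chaperone genes changed, and those that did changed little. After treatment, 5 of the 51 measured genes fell (Dnajb1, Dnaja1, Dnajc19, Dnajc28 and Hsph1) and 2 rose (Hspa4l and Dnajc4). Over all 9607 genes tested, 14.6% fell and 16.8% rose. Together 13.7% of the chaperone genes changed, against 31.4% of all genes. The largest change in either direction was that of the J-domain protein Dnajb1, at 0.534 of the untreated level, and the rise of Hspa4l was 1.53-fold. None of the 51 reached a 2-fold change, while 4.49% of all genes did.

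Calls are at a Benjamini-Hochberg adjusted p under 0.05 over all genes in limma, which tested the log2 ratio of treated over untreated cells against 0. Each set entered once, as the mean of its 2 dye orientations, so values are means with the SD over sets (n = 3). Nothing in the labels tells whether each set was its own culture, and the p-values speak only of the spread between the sets at hand, and that spread may be technical. Which channel stands on top in the deposited ratios is not stated. Cy5 over Cy3 was assumed, a likely choice given that the label text treats the Cy5 RNA as the one under test, and the opposite choice would turn every sign. In bulk RNA, a change in RNA per cell and a change in the share of cells that hold it cannot be told apart.

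The chaperone genes lay closer to 0 than genes at large, with 82.4% within 0.25 of it on the log2 scale, against 66% of all genes. Their median log2 ratio was -0.04, against -0.01 over all genes. Their spread between sets was somewhat wider, with a median SD of 0.151 against 0.124. Without any adjustment 14 of the 51 (27.5%) had a p under 0.05, against 40.2% of all genes. The sign was the same on all 6 arrays in 8 chaperone genes (15.7%), against 35.6% of all genes. These shares are a description, since the list itself was not tested. Levels were not available, so genes that these cells do not express cannot be told from genes that held steady. Dye orientations with opposite values also cancel in these means, as in Hspb1 (-2.10 and 1.84 in set 1).

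**Figure D1:**
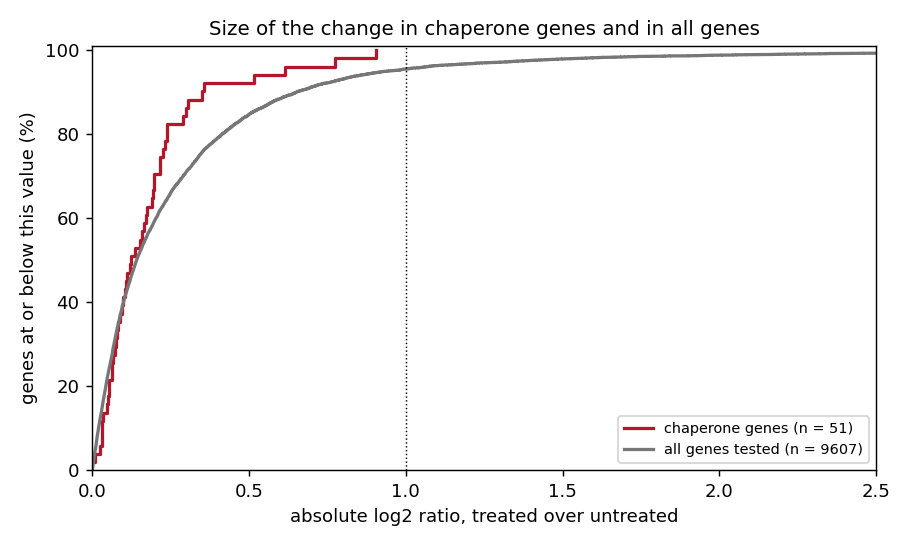
Percentage of genes (y axis) whose absolute log2 ratio of treated over untreated cells is at or below the value on the x axis, for 51 chaperone genes (red) and all 9607 genes tested (grey); the dotted line marks a 2-fold change. All of the red curve lies left of that line, and 4.49% of all genes lie to its right or on it.

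Among members of the HSP70 and HSP110 families, 1 of 8 measured genes rose and 1 fell, beside 16.8% up and 14.6% down over all genes. Hspa4l, an HSP110-type exchange factor first studied in testis, had log2 ratios of -0.05, 0.82 and 0.64 in sets 1, 2 and 3 with treated RNA in Cy5 and of 0.15, 1.22 and 0.92 with it in Cy3. Both arrays of set 1 lay near 0 and below all 4 others. The mean was 0.62 ± 0.51 (SD, adjusted p = 0.0344). It was 0.90 without set 1 (adjusted p = 0.0029) and 0.41 without set 2, where the call was lost (adjusted p = 0.158). Hsph1, also called HSP105, an exchange factor of the HSP110 family, had ratios of -0.25, -0.36 and -0.14 in the Cy5 orientation and of -0.27, -0.55 and -0.17 in the Cy3 orientation. All 6 were below 0, and Hsph1 fell to 0.818 of the untreated level (log2 -0.29 ± 0.15, adjusted p = 0.0363). That call was lost without set 1 (log2 -0.30, adjusted p = 0.116) and without set 2 (log2 -0.21, adjusted p = 0.168).

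The stress-inducible HSP70 genes Hspa1a and Hspa1b did not pass. Hspa1a was at 0.07 ± 0.11 (adjusted p = 0.551), and its arrays ran from -0.56 to 0.85, both in set 2. Hspa1b was at -0.23 ± 0.25 (adjusted p = 0.154) by its probe with all 6 ratios, with 5 of 6 arrays below 0. It was called as fallen with the treated RNA in Cy3 alone (log2 -0.31, adjusted p = 0.0421). With the treated RNA in Cy5 alone it was not (log2 -0.14, adjusted p = 0.545). These near-identical neighbours on chromosome 17 may share probe signal, so their values cannot be ascribed to one of them alone. Hspa8, the constitutive cytosolic HSP70, had no ratio on 1 array of set 3. Its 5 other ratios were all below 0, from -0.50 to -0.04, and the mean of the complete sets 1 and 2 was -0.20 (adjusted p = 0.256). The mitochondrial HSP70 Hspa9 was at 0.11 ± 0.14 (adjusted p = 0.395), with a 95% interval of 0.942 to 1.23 as a fold. Hspa4 (0.10), Hspa2 (0.05) and Hspa13 (-0.06), the other measured members, lay near 0 and did not pass. Hspa14, which works with a J-domain partner on ribosomes, had no ratio on either array of set 1. Its other 4 ratios were -0.22, -0.24, -0.61 and -0.43, and the 2 complete sets gave a mean of -0.37 (adjusted p = 0.0319 in the fit that left set 1 out for this probe).

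Of the 27 measured J-domain genes, which make up most of the 51, 4 fell and 1 rose, beside 14.6% down and 16.8% up over all genes. By class, 1 of 4 DNAJA genes and 1 of 10 DNAJB genes fell, and of 13 DNAJC genes 2 fell and 1 rose. Dnajb1 (also called HSP40), the main stress-inducible partner of cytosolic HSP70, had log2 ratios of -0.70, -0.91 and -0.67 in sets 1, 2 and 3 of the Cy5 orientation and of -0.87, -1.29 and -1.0 in the Cy3 orientation. No array lay above -0.67, and it fell 1.87-fold (log2 -0.91 ± 0.17, adjusted p = 0.000394). Dnaja1, a farnesylated partner of cytosolic HSP70, had ratios of -0.65, -1.66 and -0.43 in the Cy5 orientation and of -0.93, -0.78 and -0.19 in the Cy3 orientation. All 6 were below 0, with set 3 nearest to it, and the mean was -0.77 ± 0.45 (a 1.71-fold fall, adjusted p = 0.0101). Dnajc19, a part of the motor that draws proteins into mitochondria, had ratios of -0.40, -0.85 and -0.74 in the Cy5 orientation and of -0.19, -0.48 and -0.44 in the Cy3 orientation. It fell 1.43-fold (log2 -0.52 ± 0.20, adjusted p = 0.00572).

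Dnajc28 and Dnajc4 changed less. Dnajc28 was at -0.35 ± 0.14 (adjusted p = 0.0157), with 5 of 6 arrays below 0 and the Cy5 array of set 2 at 0.12. Its call was lost without set 1 (log2 -0.38, adjusted p = 0.0568). Dnajc4 had ratios of 0.22, 0.29 and 0.13 in the Cy5 orientation and of 0.35, 0.58 and 0.23 in the Cy3 orientation, all above 0. It rose 1.23-fold (log2 0.30 ± 0.13, adjusted p = 0.0274), and the call was lost without set 1 (log2 0.31, adjusted p = 0.103) and without set 2 (log2 0.23, adjusted p = 0.13). Just outside the threshold stood Dnajc7 (log2 -0.31, adjusted p = 0.0514), a co-chaperone that binds both HSP70 and HSP90, and the endoplasmic reticulum protein Dnajc1 (-0.22, adjusted p = 0.0569). Dnajb6 (0.22, adjusted p = 0.0595), which keeps proteins from clumping, and the synaptic vesicle protein Dnajc5 (0.24, adjusted p = 0.0697) followed. The value of Dnajc1 rests on 1 probe. A second probe had only 4 ratios, from -0.34 to 0.23, and with it included Dnajc1 was at -0.14 (adjusted p = 0.213).

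**Figure D2:**
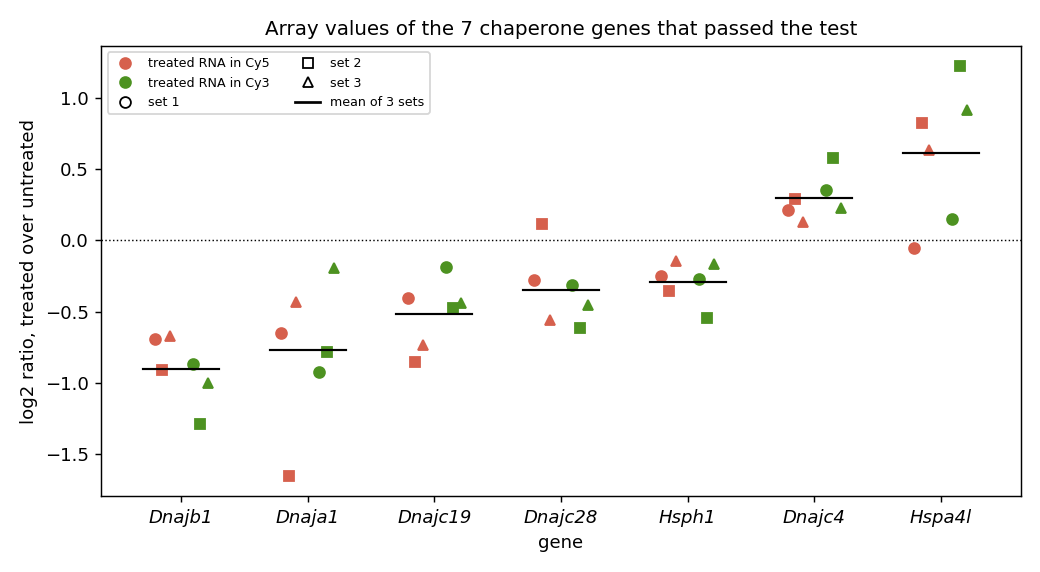
Log2 ratio of treated over untreated cells (y axis) on each of the 6 arrays for the 7 chaperone genes that passed the test (x axis), coloured by the dye of the treated RNA, with a shape for each set and a line at the mean of the 3 sets. Dnajb1, Dnaja1, Dnajc19 and Hsph1 lie below 0 and Dnajc4 above it on all 6 arrays, Dnajc28 and Hspa4l each have 1 array across 0, and the set 1 values of Hspa4l lie near 0.

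Dye orientation was not a called effect in the 51 genes (0 of 51 in limma with treatment and dye as terms, and 6 at an unadjusted p under 0.05). Over all genes 35 of 9607 had a called dye effect, and 1560 had an unadjusted p under 0.05. With the treated RNA in Cy5 alone, Dnajb1, Dnaja1 and Dnajc19 kept their calls and Dnajc28, Hsph1, Dnajc4 and Hspa4l lost theirs (adjusted p from 0.106 to 0.28). With the treated RNA in Cy3 alone all 7 passed.

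The start regions of some members hold the letters of heat shock elements, and a few are shown because these genes changed or are classic targets of HSF1. RefSeq windows (GRCm38.p6) of 250 bases before to 50 after a start were searched for 2 facing half-sites, GAANNTTC or TTCNNGAA, and for 3 alternating ones, which add NNGAA to the end of the first pattern or NNTTC to the end of the second. Both pairs read the same on either strand, the alternating forms are each other's reverse, and each of these contains both pairs. The first kind was found in 17 of 49 members with a window (34.7%), against 17% of 27025 genes, and the second in 4 members (Dnajb6, Hspd1, Hspe1 and Hsph1, 8.16%), against 0.662%. All 7 changed genes had a window, and 2 of them, Dnaja1 and Hsph1, held a match. In these stretches of 60 bases, each 5′ to 3′ on the strand of its gene, capitals mark the matches.
Dnajb1: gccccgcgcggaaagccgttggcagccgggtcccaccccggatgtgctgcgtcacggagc
Dnaja1: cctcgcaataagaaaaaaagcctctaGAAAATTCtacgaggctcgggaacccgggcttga
Hsph1: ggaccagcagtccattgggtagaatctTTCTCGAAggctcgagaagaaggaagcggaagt
Dnajb6: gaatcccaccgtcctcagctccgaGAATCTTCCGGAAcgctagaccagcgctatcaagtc
Hspe1: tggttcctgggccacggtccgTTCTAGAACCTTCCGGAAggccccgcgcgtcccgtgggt
Hspa1a: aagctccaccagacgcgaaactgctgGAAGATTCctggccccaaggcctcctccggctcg
Hspa1b: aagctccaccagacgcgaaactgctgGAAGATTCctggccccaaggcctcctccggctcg

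The stretches lie at chr8:83608115-83608174 (plus strand) for Dnajb1, chr4:40722318-40722377 (plus) for Dnaja1, chr5:149636337-149636396 (minus) for Hsph1, chr5:29735828-29735887 (plus) for Dnajb6, chr1:55088038-55088097 (plus) for Hspe1, chr17:34972227-34972286 (minus) for Hspa1a and chr17:34959309-34959368 (minus) for Hspa1b. Their last bases lie between positions -91 and -1 relative to the transcript start that defines the window. The run of capitals before Hspe1 is read on the other strand in the window of Hspd1, whose gene runs the other way. The stretches of Hspa1a and Hspa1b are the same, and their whole windows differ at 4 of 300 bases. Dnajb1 had no match in its windows, which says only that these letters were not there. Of the 4 genes with 3 alternating half-sites, Hsph1 fell and Dnajb6, Hspd1 and Hspe1 did not pass. The alternating half-sites of Hsph1 lie after the start, beyond its printed stretch, and Hspd1 and Hspe1 share the same run. A match is a description of the letters and not evidence of binding.

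Probes of one gene differed in several J-domain members. Of the 6 members with more than 1 probe measured on all arrays, Dnajb6 had the widest gap. One of its probes read 0.64, 0.98 and 0.20 in sets 1, 2 and 3 and rose 1.52-fold (log2 0.61, adjusted p = 0.0166 among probes). The other read -0.19, -0.43 and 0.09 and did not pass (log2 -0.17, adjusted p = 0.296). The gene's mean of 0.22 thus joins probes with opposite signs in sets 1 and 2. Dnaja2, a sister of Dnaja1, had one probe that was below 0 on all 6 arrays (log2 -0.41, adjusted p = 0.00906) and another at 0.03. Dnajc7 had one probe that fell (log2 -0.46, adjusted p = 0.00764) and another at -0.15. The 2 probes of Dnajb4, a relative of Dnajb1, were at 0.57 (adjusted p = 0.0424) and 0.15, and both were highest in set 3 (1.08 and 0.66). Taken singly, 4 of the 59 measured chaperone probes rose and 7 fell. Of all 13418 probes 30.8% changed, with 16.9% up and 13.9% down.

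Set 3 also stood out in Dnajc2, a J-domain protein that acts at the ribosome. Of its 4 probes, 3 read 0.76, 0.79 and 0.83 in set 3, between 0.03 and 0.17 in set 1 and between -0.23 and -0.11 in set 2. The remaining probe was at -0.04 in set 3. No probe of Dnajc2 passed, and the gene's mean was 0.20 ± 0.35 (adjusted p = 0.325).

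**Figure D3:**
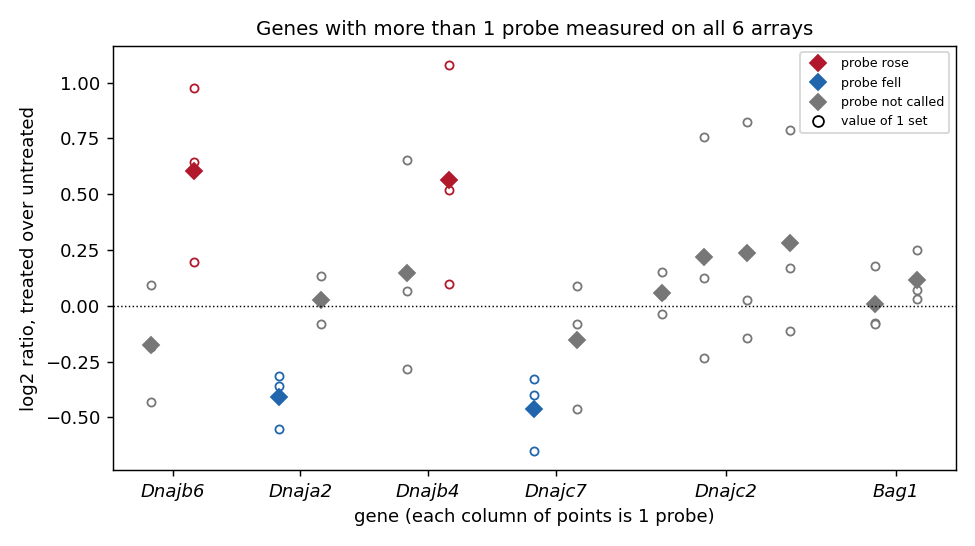
Log2 ratio of treated over untreated cells (y axis) for each probe of the 6 chaperone genes with more than 1 probe measured on all 6 arrays (x axis, 1 column of points for each probe); diamonds are means of the 3 sets and open circles the sets. In Dnajb6, Dnaja2, Dnajb4 and Dnajc7 one probe passed the test and the other did not, and in Dnajc2 the set 3 values of 3 probes lie between 0.76 and 0.83.

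Small heat shock proteins gave no call among 5 measured genes in limma, and none had an unadjusted p under 0.05. Over all genes 31.4% were called and 40.2% had an unadjusted p under 0.05. They ran from Hspb8 (log2 -0.11, adjusted p = 0.351), a partner of Bag3 in autophagy, to Hspb9 (0.09, adjusted p = 0.484), a testis protein. Hspb1, known as HSP25 in mice, was at -0.08 ± 0.09 (adjusted p = 0.51). That mean hid a wide split by dye in set 1, at -2.10 with the treated RNA in Cy5 and 1.84 with it in Cy3, while its other 4 arrays lay between -0.52 and 0.26. The second probe of Hspa1b did the same in set 1, at -2.17 and 1.77. Both stood among 77 probes of the whole array that were beyond 1.5 with opposite signs in set 1. All 77 had the same channel brighter in both orientations, which is Cy3 if the ratios are Cy5 over Cy3 as assumed. Averaging the orientations cancels such values, so the narrow interval of Hspb1 does not show that its level was the same. Set 2 held 15 such probes and set 3 held 24, none of them from chaperone genes.

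The mitochondrial pair Hspd1 (HSP60) and Hspe1 (HSP10), which form one folding chamber, did not pass. Hspd1 was at -0.16, -0.46 and 0.03 in sets 1, 2 and 3 (mean -0.19, adjusted p = 0.215). Hspe1 was at 0.28, -0.07 and 0.31 (mean 0.17, adjusted p = 0.232). Hspe1 was the higher one in each set, a difference between ratios that was not tested. Of 13 alternative fits, Hspd1 passed only in the one without set 3 (log2 -0.31, adjusted p = 0.0382). Neither gene had an unadjusted p under 0.05 with all sets.

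None of 5 measured CCT subunits and none of 4 measured BAG genes passed in limma, and none had an unadjusted p under 0.05. The shares over all genes were 31.4% and 40.2%. The CCT subunits ran from Cct6a (log2 -0.16, adjusted p = 0.312) to Cct4 (0.12, adjusted p = 0.442), with Cct8 at 0.08, Cct7 at -0.03 and Cct6b, a testis form, at -0.07. Cct3 (0.12) and Cct5 (-0.06) lacked 1 ratio each and were fitted on the 2 complete sets. Cct2 lacked 1 ratio in each of sets 1 and 3, and its other 4 ratios ran from -0.06 to 0.28. Bag4, which also binds death receptors, was at -0.26, -0.61 and 0.17 in sets 1, 2 and 3 (mean -0.23, adjusted p = 0.277). Among the alternative fits it was called, as fallen, only in the one without set 3. Bag3, an HSF1 target that links HSP70 to autophagy, was at -0.10 (adjusted p = 0.367), Bag1 at 0.06 (adjusted p = 0.634) and Bag6, which handles membrane proteins in the cytosol, at 0.03.

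**Figure D4:**
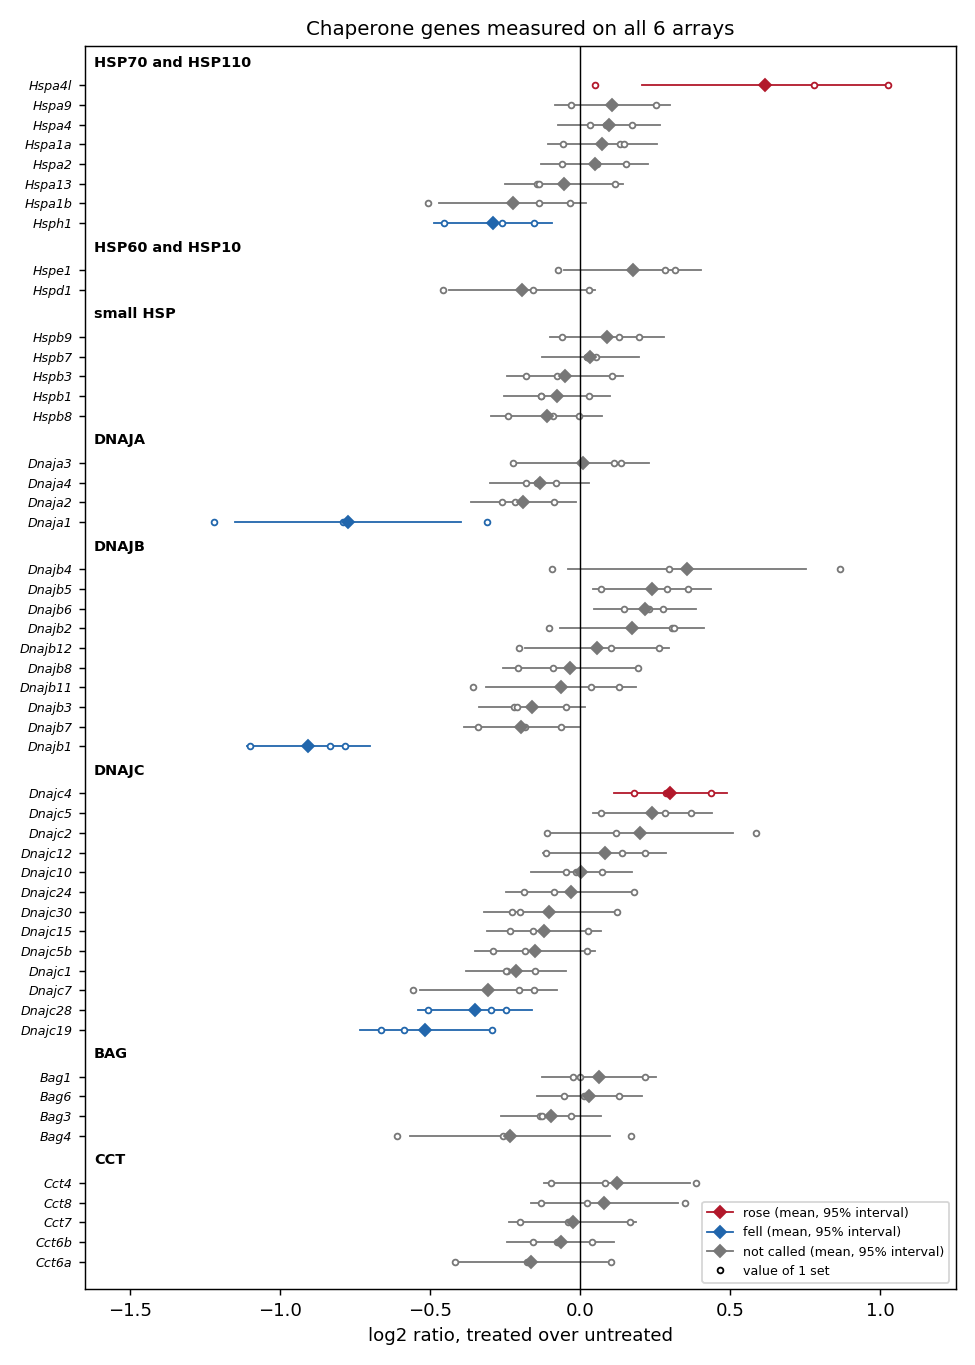
Log2 ratio of treated over untreated cells (x axis) for the 51 chaperone genes with a ratio on all 6 arrays, by family; diamonds are means of the 3 sets, lines their 95% intervals and open circles the sets. Blue genes fell (Dnajb1, Dnaja1, Dnajc19, Dnajc28 and Hsph1), red genes rose (Hspa4l and Dnajc4), and the means of the 44 grey genes lie between -0.31 and 0.36.

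For 43 of the 44 genes that did not pass, the 95% interval lay within a 1.5-fold change in either direction. The exception was Dnajb4, whose upper bound was 1.68-fold, and the lowest bound was 0.675 for Bag4. The intervals are not adjusted for the number of genes. They rest on the means of the 3 sets, so opposite values of the dye orientations cancel before the spread is measured, as in Hspb1. For such genes a narrow interval does not exclude a larger change.

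The 10 genes without a ratio on all arrays included the inducible HSP90 gene. Hsp90aa1 had 2 probes, with a single ratio of 0.04 between them, so it was not measured. Bag5 was listed at 0 on all 6 arrays. Hspa1l (0.07), Hspb2 (0.05) and Dnajc14 (0.29, adjusted p = 0.0878) were fitted on 2 complete sets and did not pass. Exact zeros were on 20.27% of the chaperone probes, against 15.28% of all probes named by 1 symbol.

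Partners of these chaperones outside the families went both ways. On 6 lists of such genes, 44 of 60 were measured, of which 3 rose and 7 fell, with a median of -0.05. The same fit gave 16.8% up and 14.6% down over all genes. Among HSP90 co-chaperones, 1 of 16 rose and 4 fell. Sugt1, which with HSP90 stabilises immune receptors of the NLR family, rose 1.28-fold (log2 0.35 ± 0.06, adjusted p = 0.00908). Among the 4 that fell, Itgb1bp2 (log2 -0.41), the phosphatase Ppp5c (-0.36) and Tomm34 (-0.33) were lowest, at 0.754 to 0.794 of the untreated level. Ppp5c did not pass without set 2 (adjusted p = 0.0508), and Tomm34 passed neither without set 1 (adjusted p = 0.0647) nor without set 2 (adjusted p = 0.0743). Stip1, which carries clients between HSP70 and HSP90, was at -0.03, and Cdc37, which brings kinases to HSP90, was at -0.01.

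Grpel2 and Yme1l1, which act in mitochondria, rose, and no other measured gene of their lists passed. On the list of mitochondrial chaperones and proteases 1 of 8 measured genes rose and 0 fell. Among HSP70 cofactors outside the families 1 of 6 rose, and over all genes 16.8% rose. Grpel2, an exchange factor for the mitochondrial HSP70 protein, was at 0.82, 0.66 and 0.55 in sets 1, 2 and 3 and rose 1.6-fold (log2 0.68 ± 0.14, adjusted p = 0.00102). Its sister Grpel1 was at 0.10 (adjusted p = 0.379). The inner membrane protease Yme1l1 was at 0.51, 0.55 and 1.19 and rose 1.68-fold (log2 0.75 ± 0.38, adjusted p = 0.00676), the highest of 8 measured on its list. In the CCT and prefoldin list, 2 of 8 fell, beside 14.6% of all genes. Tcp1, the CCT subunit whose symbol does not begin with Cct, fell to 0.849 of the untreated level (log2 -0.24 ± 0.04, adjusted p = 0.0391), and the prefoldin subunit Pfdn6 fell to 0.773 (log2 -0.37 ± 0.17, adjusted p = 0.016). Tcp1 lost its call when any 1 set was left out (adjusted p = 0.154, 0.14 and 0.0632 without sets 1, 2 and 3), and Pfdn6 lost it without set 2 (adjusted p = 0.0676). With the treated RNA in Cy5 alone, Sugt1 (log2 0.20, adjusted p = 0.196), Yme1l1 (0.53, adjusted p = 0.0556) and Pfdn6 (-0.39, adjusted p = 0.0507) were not called. With it in Cy3 alone, Itgb1bp2 (-0.26, adjusted p = 0.0763) and Tcp1 (-0.12, adjusted p = 0.346) were not.

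Of the heat shock factors, Hsf2 (log2 0.01) and Hsf4 (-0.06) did not pass, and Hsf1 was not analysed here. Hsbp1, which binds HSF1 and holds it back, fell to 0.785 of the untreated level (log2 -0.35 ± 0.08, adjusted p = 0.0105) and was below 0 on all 6 arrays, but was not called with the treated RNA in Cy5 alone (log2 -0.27, adjusted p = 0.102). The heat-inducible genes Serpinh1 (0.09), Cryaa (0.03) and Cryab (0.02) did not pass in limma.

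The 4 genes of the endoplasmic reticulum left out of the members stood on a list of 10 chaperones of that compartment. Hspa5 (BiP), the HSP70 of that compartment, had ratios of 1.07, 0.37 and 0.82 in the Cy5 orientation and of 1.22, 0.62 and 1.10 in the Cy3 orientation. It rose 1.82-fold (log2 0.87 ± 0.34, adjusted p = 0.00243). Dnajb9 was at 0.24, 0.40 and 1.42 in sets 1, 2 and 3 (mean 0.69, adjusted p = 0.0475), with set 3 far above the others. It was at 0.32 without set 3 (adjusted p = 0.0239) and 0.83 without set 2 (adjusted p = 0.0704), and its call was lost in 6 of 13 alternative fits. Dnajc3 (0.18) and Hsp90b1 (-0.16) did not pass. Of the 10 genes on the list 2 rose and the other 8 did not pass in limma, while 16.8% of all genes rose and 14.6% fell. Sdf2l1, one of these 8, split by dye. It was at -1.441, -1.306 and -1.064 in the Cy5 orientation and at 1.935, 1.407 and 1.163 in the Cy3 orientation. Averaging the orientations cancels such values, so its mean of 0.116 does not show that its level was the same. Members that work in the same compartment did not pass either, with Dnajb11 at -0.06, Dnajc10 at 0.00 and Dnajc1 at -0.22. The difference between compartments was not tested.

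The arrays give ratios between conditions and not levels, so the presence of macrophage markers could not be judged from them. Of 8 macrophage markers with a ratio on all arrays 6 rose and 1 fell, and of 7 markers of other cell types 1 rose, the endothelial and leukocyte gene Pecam1 (log2 0.39). Over all genes 16.8% rose and 14.6% fell. Fcgr1 (log2 2.13) and Adgre1 (1.79) were the highest macrophage markers, and Csf1r (-0.27) was the one that fell. The part of these markers in the chaperone values was not tested. Once turned to treated over untreated, arrays with the same dye orientation correlated at 0.771 to 0.839 and arrays with opposite dyes at 0.622 to 0.852, taken across probes, which share arrays and are no replicates.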

How the data were processed

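The deposited table holds log2 ratios between the channels of each array, as read from its values. How the authors corrected background and normalized is not given in the sources used here. Each column has a median of 0, and the largest size equals a ratio of 100, so larger ratios look capped. Exact zeros (9.56% to 12.86% of an array) were taken as missing. Arrays were turned to treated over untreated by the dyes, the 2 orientations of a set were averaged, and probes of 1 symbol with ratios on all 6 arrays were averaged into genes. In R 4.3.3, the moderated two-sided test of limma 3.58.1 (lmFit, eBayes) was run on 9607 genes against 0 over 3 sets. A run on simulated independent sets checked only the code, since the independence of the real sets is not known. Members fitted on 2 complete sets came from a separate probe fit. Tables and figures used Python 3.11.15. Gene names are those of the platform's annotation, which can be old, and promoters were matched by gene ID. The number of arrays limits the precision.

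The members, families and pathway lists were chosen with earlier results of these data known, so no list was tested. Named genes are all called members, the highest and lowest of each family and 17 fixed by name (Hspa1a, Hspa1b, Hspa8, Hspa9, Hspd1, Hspe1, Hsp90aa1, Hsp90ab1, Hsph1, Hspb1, Dnaja1, Dnajb1, Dnajb6, Bag1, Bag3, Hsf1 and Tcp1), and up to 3 called genes in each direction of each pathway list; others are named to account for each family, for probes that disagree or as neighbours of the threshold, after their values were seen. Hsp90ab1 and Hsf1 were not analysed here. Alternatives covered zeros, filters, normalization, moderation, replication, dye orientation, probes and each set.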

Additional observations from a re-analysis of the deposited data

Results flagged for a closer look

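Among the 6 array ratios of each of the 51 genes, 4 genes had 1 array that stood apart by Dixon's criterion; chance alone would flag about 1 group in 20. All 4 arrays belonged to set 2. In Dnajc12 the array with treated RNA in Cy5 was at -0.37, with the nearest other array at 0.07. Hspb3 was at 0.62 in the Cy5 orientation, with the nearest other at -0.06, and Hspb8 was at -0.54 there, with the nearest other at -0.11. Hspa13 was at 0.31 in the Cy3 orientation, with the nearest other at -0.08. None of these genes passed the test.

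Dnajb8, a J-domain protein of testis, was above 0 whenever the treated RNA carried Cy5 (3 arrays) and below 0 whenever it carried Cy3 (3 arrays), a difference of 0.58 on the log2 scale between the orientations. Its dye term did not pass adjustment (adjusted p = 0.168 in limma). Other members differed by dye too. Dnajc30 was at -0.408, -0.227 and -0.715 in the Cy5 orientation and at -0.051, 0.468 and 0.311 in the Cy3 orientation (dye term, adjusted p = 0.155). Dnajc30 was called as fallen with the treated RNA in Cy5 alone (log2 -0.45, adjusted p = 0.0436). With the treated RNA in Cy3 alone it was not called (log2 0.24, adjusted p = 0.151).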

How the results depend on the processing

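Reported are 2 chaperone genes up, 5 down and a median of -0.04. With zeros kept as ratios 0 rose and 2 fell (4 and 8 at an unadjusted p under 0.05 in limma); this setting adds genes that are 0 on all arrays and so have no spread. With treated RNA in Cy5 only 0 rose (1 at an unadjusted p under 0.05), and with it in Cy3 only 9 fell. Robust moderation left 1 rise, and probes tested singly gave 4. With the set as a replicate block 4 rose and 5 fell, and with 6 arrays as separate replicates 4 rose and 8 fell. Leaving out 1 set gave 1 to 4 up and 3 to 8 down, with 4 up and 8 down without set 3; apart from the loss of samples the cause was not tested. The median of the members ran from -0.05 to -0.01 over these settings. Dnajb1 and Dnajc19 passed in all 13 other gene fits (adjusted p up to 0.0164 and 0.0475) and Dnaja1 in 12, while Dnajc28, Dnajc4, Hspa4l and Hsph1 each passed in 9. With the replicate block Dnajc28 was not called (adjusted p = 0.0643), and Dnajb6, Dnajc5 and Dnajc1 were. Over 62 genes, of which 51 are the members, 0 called values changed sign, 39 calls were lost and 25 gained over all fits. In each of the 13 fits the share of chaperone genes called was below that of all genes tested. It was 3.28% against 19.7% with zeros kept, 7.84% against 22.5% in Cy5 only and 21.6% against 32.3% in Cy3 only. Robust moderation gave 13.7% against 32%, the replicate block 17.6% against 32.1% and 6 separate arrays 23.5% against 38%. Without sets 1, 2 and 3 the share was 9.8%, 9.8% and 23.5%, against 22.5%, 23.6% and 31.1%. Deviations of arrays with the same set number from their orientation's mean correlated at 0.219, 0.079 and 0.57 across genes in sets 1, 2 and 3, and not every array correlated best with its own number (sets 1 and 2 crossed at up to 0.208), so these values do not show that the numbers pair the arrays. The reported SDs and p-values still average by set number, because arrays of one number may share RNA; the counts with 6 separate arrays stand above.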
